A study of Mus musculus with 2 samples.

Results

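The Ms4a family was followed through the phagocytes of mouse skin as 8 listed genes, Ms4a1, Ms4a4a, Ms4a4b, Ms4a4c, Ms4a6b, Ms4a6c, Ms4a6d and Ms4a7, of the 19 genes with an Ms4a symbol and the 32285 genes in the count matrix. The members were chosen by name, and all 8 were present. The cells came from the dorsal skin of wild-type male mice and had been sorted as F4/80+ with high MHC class II. One single-cell library was made from 2 pooled mice aged 9 weeks and 1 from 2 pooled mice aged 108 weeks. Both libraries lie in 1 matrix, and no source used here ties a barcode suffix to an age, so the ages were not compared. Values are given for the library with suffix 1 and the library with suffix 2, both of unknown age, and no p-value was computed because cells of 1 library are not replicates.

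Ms4a proteins are small membrane proteins that cross the membrane several times and act beside other receptors. The best known is the B cell antigen CD20, the product of Ms4a1. Ms4a2 encodes the beta chain of the high-affinity IgE receptor of mast cells, and Ms4a4b is known from T cells. Several of the remaining genes are used as markers of macrophages and monocytes, although their functions are less well understood.

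The filter on genes, unique molecular identifiers (UMIs) and mitochondrial UMIs, with the removal of 6 called doublets, left 3791 cells. Of these, 2396 had suffix 1 and 1395 suffix 2, with 1002 to 204057 UMIs per cell and a median of 10865. The libraries shared 1 barcode sequence, which was not among the analysed cells. Despite the sort, 2039 cells (53.8%) lay in 11 clusters with a myeloid profile. These clusters gave 732 macrophage-like cells in 3 clusters, 400 monocyte-like cells in 1 cluster and 527 dendritic-like cells in 5 clusters, while 380 cells in 2 clusters stayed unnamed. The macrophage-like cells were highest of the 3 groups in 11 of 12 macrophage markers, the monocyte-like cells in 7 of 8 monocyte markers and the dendritic-like cells in 8 of 9 dendritic markers. The same lists named the groups, so these counts describe the names and do not test them. Mature dendritic and Langerhans markers could also name dendritic-like clusters, and these cells were highest in 8 of 8 and 3 of 5 of them. The macrophage-like cells were highest in the other 2 Langerhans markers. The monocyte-like cluster, led by Ly6c2 and Spp1, was also highest in 6 of 7 lipid-associated macrophage markers. It held C1qa at 1487 CPM (UMIs per 1000000 of the group) and carried the neutrophil-type genes S100a8 and S100a9 among its 10 leading genes. The interferon-response genes Irf7, Oas3 and Rsad2 were also among these 10. Over the median cluster, this cluster had all 12 macrophage markers and 7 of 8 monocyte markers raised. Its mean log2 excess there was 3.66 for the macrophage list and 3.12 for the monocyte list, against 0.16 and 0.92 over the pooled phagocytes. Its cells were unevenly spread over the libraries, with 347 of suffix 1 and 53 of suffix 2. No Ms4a gene was among the markers or the variable genes used for clustering.

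All 8 members lie within 355 kb of chromosome 19 (GRCm38, the assembly named mm10, GENCODE vM21), between positions 11249675 and 11604849. From the low end, the order of the members is Ms4a1, Ms4a7, Ms4a4a, Ms4a4c, Ms4a4b, Ms4a6c, Ms4a6b and Ms4a6d. Ms4a7 (ENSMUSG00000024672) spans 11321039 to 11336146 on the minus strand. On the plus strand follow Ms4a4c (ENSMUSG00000024675; 11404770 to 11427246), Ms4a4b (ENSMUSG00000056290; 11443553 to 11467055), Ms4a6c (ENSMUSG00000079419; 11469366 to 11482192) and Ms4a6b (ENSMUSG00000024677; 11516512 to 11531256). Ms4a6d (ENSMUSG00000024679; 11586604 to 11604849) is again on the minus strand. Ms4a1 (ENSMUSG00000024673; 11249675 to 11266241, minus strand) and Ms4a4a (ENSMUSG00000101389; 11375523 to 11392790, plus strand) complete the set.

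Promoter sequences from RefSeq (GRCm38.p6) were matched by symbol for 6 of the 8 members and are shown for pairs of neighbouring paralogs because their sequences can be read beside their levels in the cells. Each is the 250 bases before the RefSeq start, 5′ to 3′ on the strand of the gene. For Ms4a4c and Ms4a6b the whole window lies inside the GENCODE gene span given above, so positions hold for the RefSeq start only. In the first pair, Ms4a6b (chr19:11518309-11518558, plus strand) and Ms4a6c (chr19:11469118-11469367, plus strand), capitals mark the longest run that both share.
Ms4a6b: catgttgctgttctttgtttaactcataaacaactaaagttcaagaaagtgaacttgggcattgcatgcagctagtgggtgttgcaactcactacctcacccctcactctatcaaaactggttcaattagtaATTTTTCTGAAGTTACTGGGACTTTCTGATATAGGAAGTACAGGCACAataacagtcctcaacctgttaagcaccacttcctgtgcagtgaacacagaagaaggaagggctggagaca
Ms4a6c: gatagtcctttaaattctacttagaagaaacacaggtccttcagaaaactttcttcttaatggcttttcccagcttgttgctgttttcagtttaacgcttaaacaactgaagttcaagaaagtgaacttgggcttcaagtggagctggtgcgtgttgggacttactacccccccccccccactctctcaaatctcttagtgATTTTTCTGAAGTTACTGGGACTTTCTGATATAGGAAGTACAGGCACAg

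The shared run of these 2 promoters was 48 bases long and began at -118 in Ms4a6b and at -49 in Ms4a6c, counted from the start. In the second pair, Ms4a4b (chr19:11443308-11443557, plus strand) and Ms4a4c (chr19:11407411-11407660, plus strand), capitals again mark the longest shared run.
Ms4a4b: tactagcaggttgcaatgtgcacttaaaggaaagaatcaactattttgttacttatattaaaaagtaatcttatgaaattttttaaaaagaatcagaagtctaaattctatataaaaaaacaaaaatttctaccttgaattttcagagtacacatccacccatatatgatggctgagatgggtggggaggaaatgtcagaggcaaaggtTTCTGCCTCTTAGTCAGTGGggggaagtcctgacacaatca
Ms4a4c: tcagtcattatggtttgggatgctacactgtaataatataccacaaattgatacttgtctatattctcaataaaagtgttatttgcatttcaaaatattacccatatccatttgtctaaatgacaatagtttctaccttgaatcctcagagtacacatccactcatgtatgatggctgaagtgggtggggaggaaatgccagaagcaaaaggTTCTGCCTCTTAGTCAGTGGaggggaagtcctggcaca

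The Ms4a4b and Ms4a4c promoters were 68.8% identical in a global alignment, against a median of 46.1% over the 15 promoter pairs, and their longest shared run was 20 bases. The Ms4a6b and Ms4a6c promoters were 45.8% identical when aligned from end to end, since their shared run lies at different distances from the start. The promoter of Ms4a7 (chr19:11336147-11336396, minus strand) is shown because this gene had the highest log2 ratio of macrophage-like over dendritic-like cells among the 8 members, and capitals mark a match to GGAAGT on the reverse strand.
Ms4a7: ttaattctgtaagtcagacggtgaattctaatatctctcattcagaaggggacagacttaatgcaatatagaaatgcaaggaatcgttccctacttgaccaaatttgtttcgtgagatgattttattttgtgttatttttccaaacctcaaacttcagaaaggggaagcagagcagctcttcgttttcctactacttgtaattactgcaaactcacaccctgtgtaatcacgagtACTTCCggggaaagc

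GGAAGT, a core of the sites bound by ETS factors such as PU.1, was searched on both strands of the 250 bases and was present in 5 of 6 members, against 19.7% of 32851 promoters of the same length. It began at -15 in Ms4a4c, at -19 in Ms4a4b and at -16 in Ms4a6c, and its reverse complement began at -15 in Ms4a7. In Ms4a6b it began at -85 within the shared run, with a reverse match at -43, and Ms4a4a had none. GAAANNGAA, a spacing found in interferon response elements, was present in 3 of 6 members (Ms4a6b, Ms4a6c and Ms4a7) and in 7.13% of all promoters. The 2 motifs did not overlap in these windows, and a match describes the letters only. The members are paralogs, so their promoters are not independent and these counts do not test for an excess over all promoters. Ms4a6b and Ms4a6c each had a GGAAGT match inside their shared run and a GAAANNGAA match inside another stretch common to both. The GGAAGT matches of Ms4a4b and Ms4a4c lay in promoters that were 68.8% identical.

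Across the whole family, most members were mainly found in phagocytes and a few genes mainly in other cell types. Ms4a7, Ms4a6c, Ms4a6b, Ms4a6d and Ms4a4c had 96.5% to 97.8% of their UMIs in the phagocyte clusters, with totals of 5865, 11764, 3866, 5355 and 5837 UMIs. The sparse Ms4a4a had 98.5% of its 197 UMIs there, and Ms4a1 76.6% of its 47 UMIs. Ms4a4b had only 42.7% of its 370 UMIs there, and reached 660 CPM (573 to 757, exact 95% Poisson interval) in the T or NK-like cells. Outside the list, Ms4a4d stood at 199.5 CPM in fibroblast-like cells and at 0.153 CPM or less in macrophage-like and dendritic-like cells, and Ms4a2 stood at 314 CPM in mast-like cells with no UMI in any phagocyte group. Ms4a8a and Ms4a14, also outside the list, reached 35.1 and 21.1 CPM in macrophage-like cells and 44.9 and 14.3 CPM in monocyte-like cells, against 2.60 and 0.519 CPM in dendritic-like cells. The log2 ratio of Ms4a14 in macrophage-like over dendritic-like cells, 5.35 (3.96 to 7.24), rests on 138 and 4 UMIs. Ms4a3, Ms4a13, Ms4a15 and Ms4a18 had no UMI in the analysed cells.

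**Figure D1:**
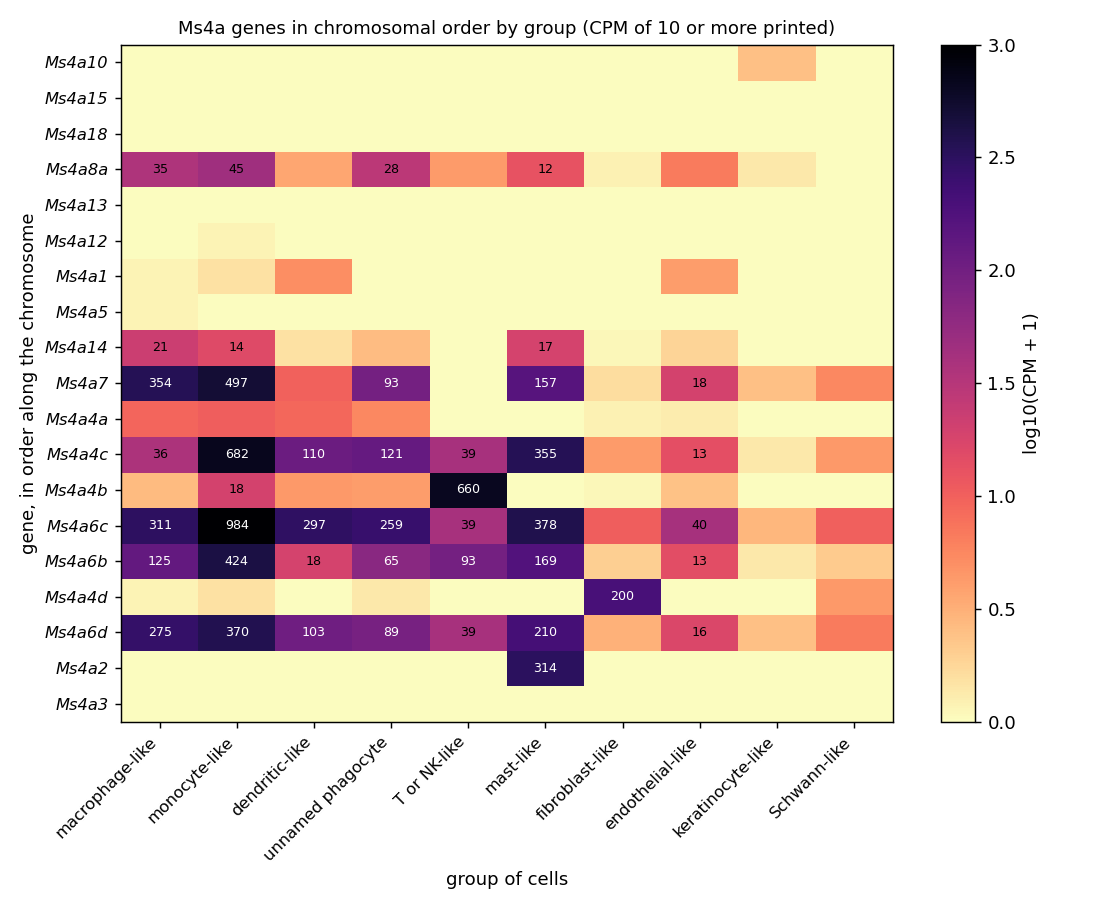
Level of each of the 19 Ms4a genes, in their order along the chromosome (vertical), in 10 groups of cells (horizontal), as log10(CPM + 1). Ms4a7, Ms4a4c, Ms4a6c, Ms4a6b and Ms4a6d are highest in monocyte-like cells, whereas Ms4a4b is highest in T or NK-like cells (660 CPM), Ms4a4d in fibroblast-like cells (199.5 CPM) and Ms4a2 in mast-like cells (314 CPM).

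Ms4a7 was abundant in macrophage-like and monocyte-like cells and close to absent from dendritic-like cells. It stood at 354 CPM (340 to 369) in macrophage-like cells, with 341 CPM in the library with suffix 1 and 393 CPM in the library with suffix 2. Monocyte-like cells held 497 CPM (479 to 516), with 532 and 359.6 CPM in the libraries. Dendritic-like cells held 8.69 CPM (6.74 to 11.04), with 9.23 and 7.50 CPM. In both libraries the dendritic-like value was therefore far below both other groups, whereas the order of macrophage-like and monocyte-like cells differed between the libraries. The log2 ratio was 5.35 (4.997 to 5.72) for macrophage-like and 5.84 (5.49 to 6.21) for monocyte-like over dendritic-like cells. Between macrophage-like and monocyte-like cells it was -0.49 (-0.57 to -0.41) in all cells, and -0.64 and 0.13 in the libraries, so that these 2 groups were not ordered beyond the spread between libraries.

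Ms4a6b followed a similar course, with a wider step between monocyte-like and macrophage-like cells. It reached 424 CPM (407 to 441) in monocyte-like cells (438 and 367 CPM in the libraries), 125 CPM (116 to 134) in macrophage-like cells (110.05 and 169 CPM) and 17.6 CPM (14.8 to 20.9) in dendritic-like cells (16.96 and 19.2 CPM). The 3 groups kept this order in both libraries without overlap. The log2 ratio over dendritic-like cells was 4.58 (4.34 to 4.84) for monocyte-like and 2.82 (2.56 to 3.09) for macrophage-like cells, and that of macrophage-like over monocyte-like cells was -1.76 (-1.88 to -1.65), with -1.99 and -1.12 in the libraries.

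Ms4a6d differed less between the groups. It stood at 369.9 CPM (354 to 386) in monocyte-like, 275 CPM (263 to 288) in macrophage-like and 103 CPM (95.5 to 109.9) in dendritic-like cells. In the libraries the monocyte-like values were 362 and 403 CPM, the macrophage-like values 234 and 399 CPM, and the dendritic-like values 98.5 and 111 CPM. Dendritic-like cells were lowest in both libraries, with log2 ratios of 1.42 (1.30 to 1.55) for macrophage-like and 1.85 (1.73 to 1.97) for monocyte-like over dendritic-like cells. The log2 ratio of macrophage-like over monocyte-like cells was -0.63 in the library with suffix 1 and -0.01 in the other, so that their order was not settled.

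Ms4a6c was the most abundant member in monocyte-like and dendritic-like cells. Monocyte-like cells held 984 CPM (958 to 1010, with 1009 and 881 CPM in the libraries). Macrophage-like cells held 311 CPM (298 to 325, with 280.2 and 405 CPM) and dendritic-like cells 297 CPM (285 to 309.9, with 295 and 303 CPM). Monocyte-like cells were highest in both libraries, by a log2 ratio of 1.73 (1.66 to 1.80) over dendritic-like cells, while that of macrophage-like over monocyte-like cells was -1.66 (-1.73 to -1.59). Macrophage-like and dendritic-like cells could not be told apart, with a log2 ratio of 0.07 (-0.02 to 0.15) in all cells and of -0.07 and 0.42 in the libraries.

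Ms4a4c, in contrast, was lowest in macrophage-like cells. It reached 682 CPM (661 to 704) in monocyte-like cells (699 and 614 CPM in the libraries), 110.2 CPM (103 to 118) in dendritic-like cells (105 and 123 CPM) and 35.5 CPM (31.1 to 40.4) in macrophage-like cells (27.7 and 59.2 CPM). This order held in both libraries. The log2 ratio of macrophage-like over monocyte-like cells was -4.26 (-4.46 to -4.07, with -4.66 and -3.38 in the libraries) and that over dendritic-like cells was -1.63 (-1.85 to -1.42), while monocyte-like over dendritic-like cells stood at 2.63 (2.52 to 2.74). The lower level in macrophage-like than in dendritic-like cells depended on grouping whole clusters. When each phagocyte was grouped by its own marker levels, the log2 ratio was 0.44.

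**Figure D2:**
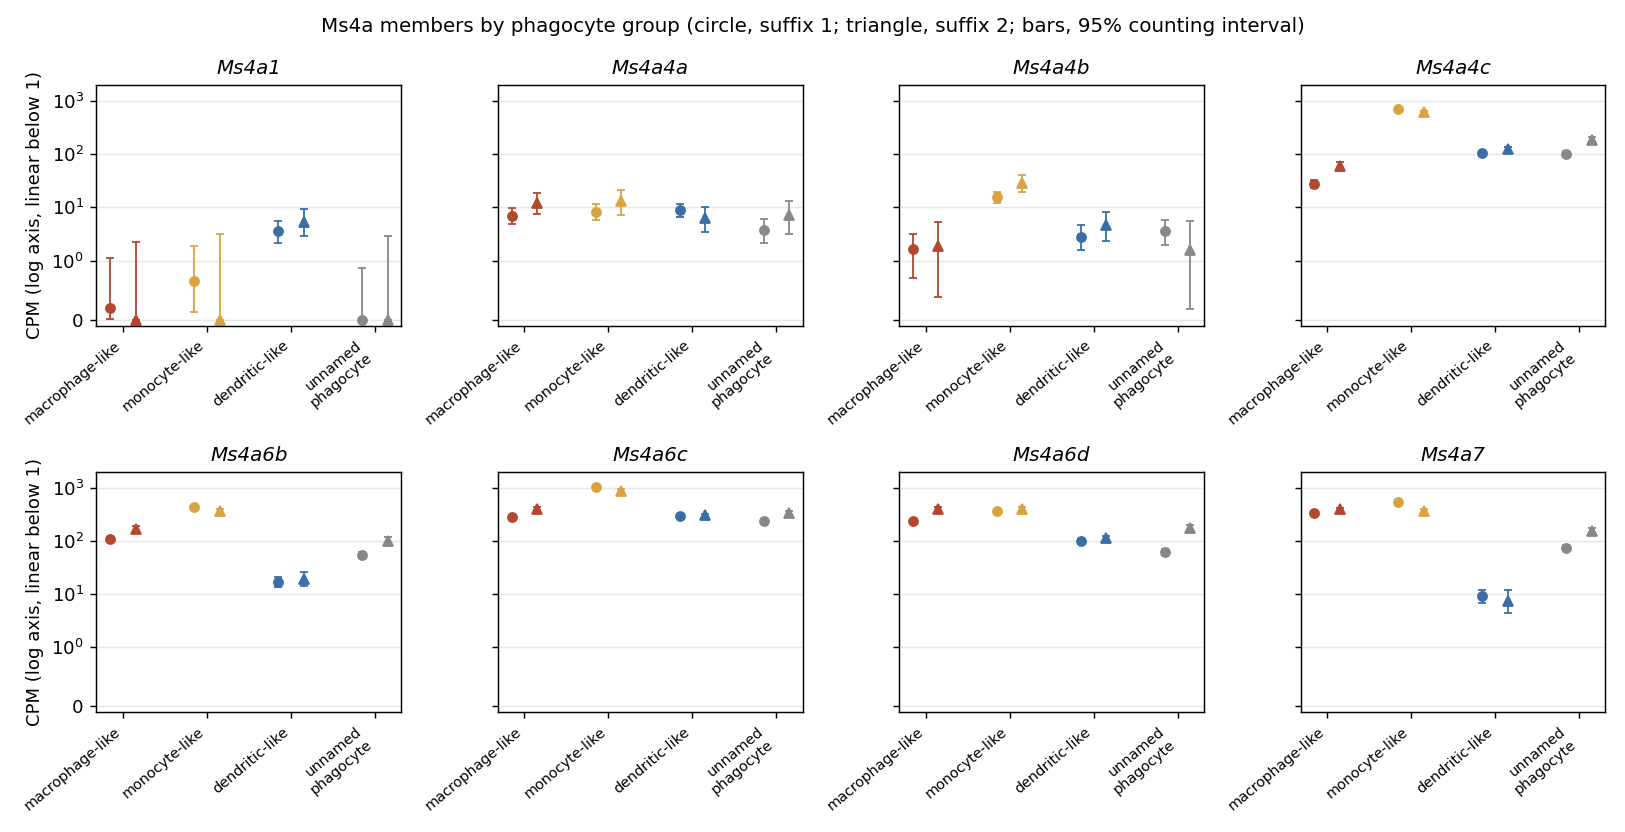
Level of each member in CPM (vertical, log axis, linear below 1) in the 4 phagocyte groups (horizontal), with circles for the library with suffix 1, triangles for the library with suffix 2 and bars for the exact 95% Poisson interval. Ms4a7 falls to 9.23 and 7.50 CPM in dendritic-like cells, and Ms4a4a stays between 3.77 and 13.03 CPM in every group.

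The remaining members were sparse in phagocytes. Ms4a4a stood at 8.27 CPM (6.21 to 10.8) in macrophage-like, 9.27 CPM (6.94 to 12.1) in monocyte-like and 8.05 CPM (6.17 to 10.3) in dendritic-like cells, and every log2 ratio between these groups had an interval that included 0. Ms4a4b reached 18.2 CPM (14.9 to 22.0) in monocyte-like cells, from 104 UMIs in 67 cells, against 1.68 CPM (0.841 to 3.01) in macrophage-like and 3.37 CPM (2.20 to 4.94) in dendritic-like cells. Its level in monocyte-like cells was 15.5 CPM in the library with suffix 1 and 28.7 CPM in the other. The T cell receptor subunit gene Cd3e had no UMI in macrophage-like, monocyte-like or dendritic-like cells, and stood at 238 CPM in the T or NK-like cells. Under a stricter cell filter, which rebuilt the groups from fewer cells, the log2 ratio of Ms4a4b in monocyte-like over dendritic-like cells turned from 2.43 to -0.20.

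Ms4a1 was found in 10 cells, with 47 UMIs in all. Of these UMIs, 32 lay in 5 cells of the dendritic-like cluster of 121 cells that was led by the B cell genes Igkc and Cd79a. All 5 of these cells also held a UMI of Cd79a, which encodes a signalling chain of the B cell receptor, and none held a UMI of the dendritic marker Cd209a. A further 11 UMIs came from 1 endothelial-like cell, which held Cd79a as well. Macrophage-like cells had 1 UMI of Ms4a1 and monocyte-like cells 3 UMIs, so that no ratio between them is given. The level of 4.15 CPM (2.84 to 5.86) in dendritic-like cells thus came from these 5 cells.

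Of the 8 members, 6 had at least 50 UMIs in macrophage-like and dendritic-like cells together. Of these, 3 (Ms4a6b, Ms4a6d and Ms4a7) were at least 2-fold higher in macrophage-like cells and 1 (Ms4a4c) at least 2-fold lower, where 15.3% and 9.32% of 9032 genes passed the same folds. In monocyte-like against dendritic-like cells 6 of 7 members with enough UMIs (Ms4a4b, Ms4a4c, Ms4a6b, Ms4a6c, Ms4a6d and Ms4a7) were at least 2-fold higher and 0 lower, where 18.7% of 8994 genes were higher and 6.99% lower. In macrophage-like against monocyte-like cells 0 of 7 were higher and 4 (Ms4a4b, Ms4a4c, Ms4a6b and Ms4a6c) lower, where 5.13% of 8829 genes were higher and 10.1% lower. The median log2 ratios of the members with enough UMIs were 0.75, 2.43 and -1.66 in the 3 comparisons, beside medians of 0.07, 0.34 and -0.25 over all genes. These comparisons share groups and are not independent, and the members were chosen with earlier results of the data known.

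**Figure D3:**
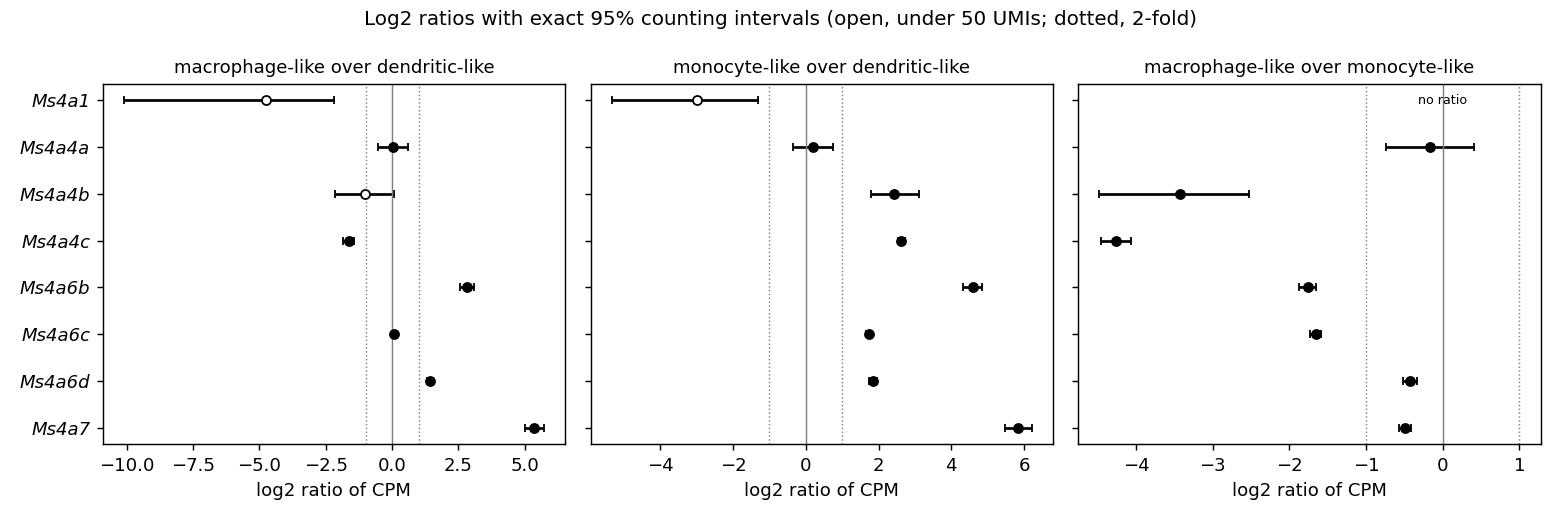
Log2 ratio of CPM (horizontal) for each member (vertical) in the 3 comparisons of groups, with bars for the exact 95% interval, open points for members with under 50 UMIs and dotted lines at 2-fold. Of the members, Ms4a7 has the highest ratio over dendritic-like cells (5.35 and 5.84), and in macrophage-like over monocyte-like cells no member lies above 0 (Ms4a1 has no ratio).

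The make-up of the family differed accordingly. UMIs are tags of the 3′ end, so gene length does not enter, although genes may still be captured with different efficiency. Together the 8 members took 2984 CPM in monocyte-like, 1111 CPM in macrophage-like and 552 CPM in dendritic-like cells. In macrophage-like cells Ms4a7 supplied 31.9% (30.8 to 32.9, exact Clopper-Pearson interval) of these UMIs, Ms4a6c 28.0% (27.0 to 29.1) and Ms4a6d 24.8% (23.8 to 25.8). Ms4a7 led in the library with suffix 1 alone, with 34.0% (32.7 to 35.4) against 28.0% for Ms4a6c, while in the library with suffix 2 it supplied 27.3% (25.5 to 29.1), Ms4a6c 28.2% and Ms4a6d 27.7% (25.9 to 29.6). In dendritic-like cells Ms4a6c alone supplied 53.9% (52.4 to 55.4), followed by Ms4a4c with 19.96% (18.8 to 21.2) and Ms4a6d with 18.6% (17.4 to 19.8), and Ms4a7 supplied 1.57% (1.22 to 2.00). In monocyte-like cells Ms4a6c supplied 33.0% (32.3 to 33.7) and Ms4a4c 22.9% (22.2 to 23.5).

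Within the groups, the members varied between clusters. Among the macrophage-like clusters, the resident cluster of 301 cells, led by Cd209f and including Lyve1, held Ms4a4c at 3.51 CPM, the cluster of 268 cells led by Vcam1 held 23.2 CPM and the cluster of 163 cells led by Cfd and including Il1a and Ccl3 held 99.1 CPM. Ms4a6d ran the other way over the same clusters, from 326 to 283 and 190.1 CPM, while Ms4a7 stood at 360.2, 432 and 243 CPM. The third of these clusters also carried the adipocyte genes Cfd and Car3 among its leading genes, and the second the muscle genes Acta1 and Ckm, and their part in these values was not tested. The third cluster was named by a narrow lead. Its mean log2 excess over the pooled phagocytes was 0.28 for the macrophage list and -0.003 for the monocyte list, at a required lead of 0.25. This cluster held 171 of the 232 Ms4a4c UMIs of macrophage-like cells. Without it, the log2 ratio of Ms4a4c over dendritic-like cells went from -1.63 to -3.12 and that over monocyte-like cells from -4.26 to -5.75, while the counts of members past 2-fold were the same.

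Among the dendritic-like clusters, Ms4a7 stayed at 1.77 CPM in the cluster of 214 cells with Cd207 and Mmp12, at 5.55 CPM in the cluster led by Igkc, at 10.9 CPM in the cluster of 138 cells with Ccr7 and Cd209e, and at 16.0 CPM in the 33 cycling cells. The 21 cells led by Fscn1 with Ccl22 and Ccr7, genes of mature dendritic cells, held Ms4a7 at 68.0 CPM (41.5 to 105) and Ms4a6c at 91.8 CPM, against 248 to 425 CPM of Ms4a6c in the other 4 clusters. In these cells all 20 UMIs of Ms4a7 lay in 3 cells and all 27 UMIs of Ms4a6c in 4 cells, so the values are not levels of the whole cluster. Only 6 doublets had been called and removed from all cells, so doublets may remain. Ms4a6b was likewise below 17 CPM in the 3 largest clusters and stood at 68.1 and 57.8 CPM in the cycling and the mature cells. The last value rests on 17 UMIs in 3 cells.

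**Figure D4:**
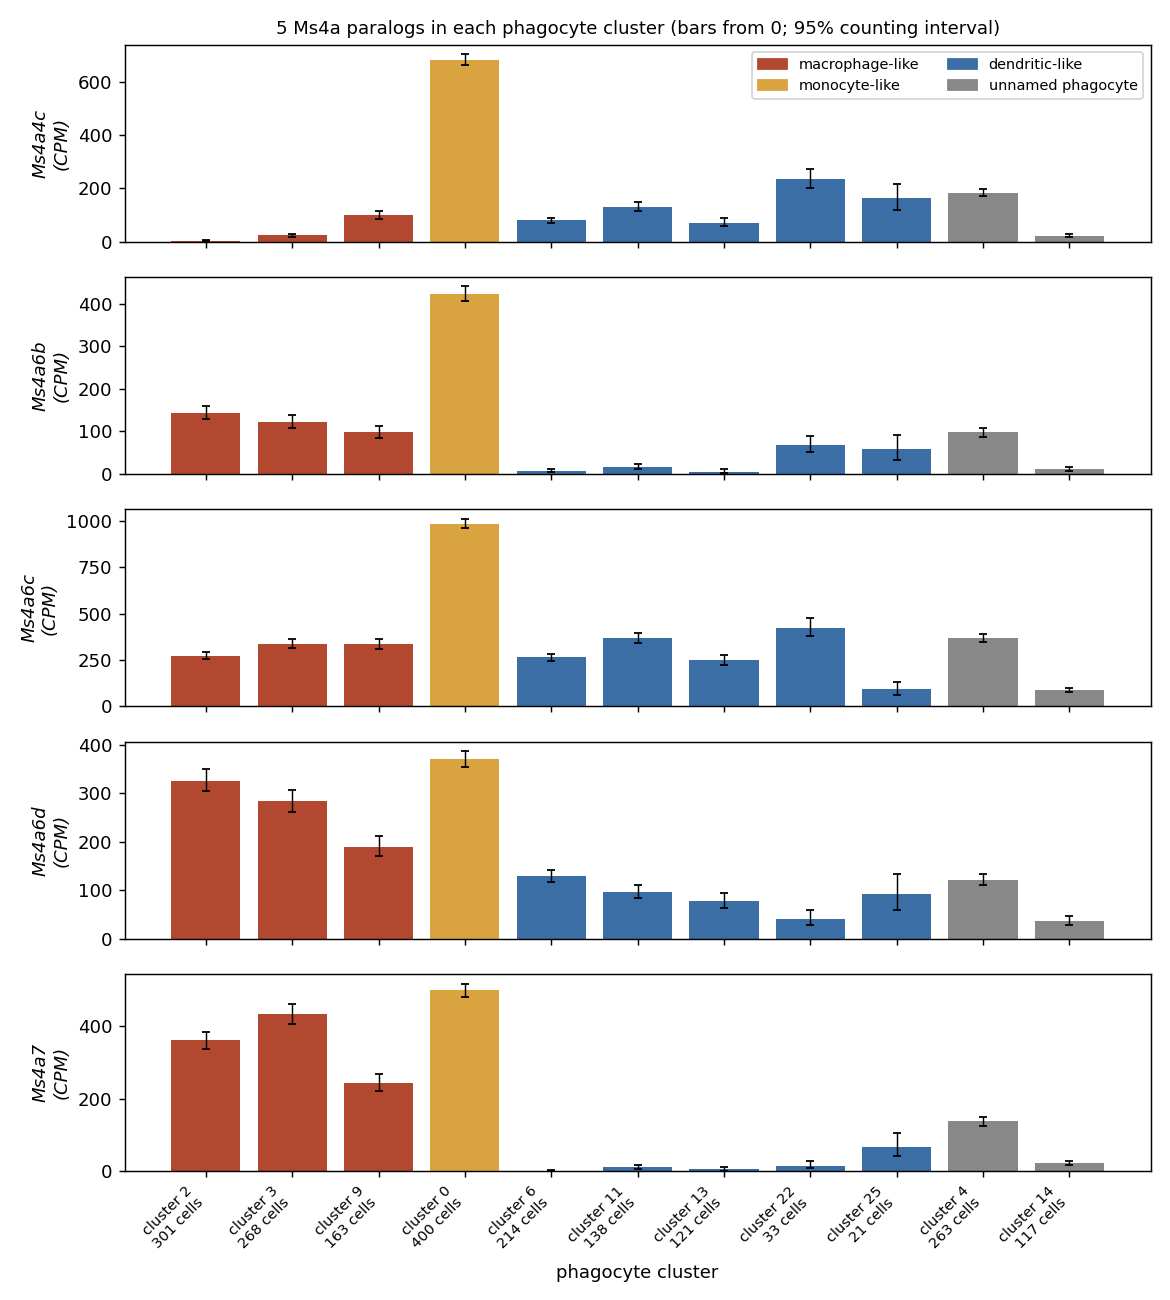
Level in CPM (vertical, from 0) of 5 paralogs in each of the 11 phagocyte clusters (horizontal, with their numbers of cells), with bars for the exact 95% Poisson interval and colours for the groups. The monocyte-like cluster is highest for all 5 genes, and Ms4a4c rises from 3.51 to 99.1 CPM over the macrophage-like clusters while Ms4a6d falls from 326 to 190.1 CPM.

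The 2 unnamed phagocyte clusters, both with Fn1, Retnla and Lyz1 among their leading genes, differed in every one of these 5 paralogs. The cluster of 263 cells held Ms4a6c at 368 CPM, Ms4a4c at 184 CPM and Ms4a7 at 137 CPM, and the cluster of 117 cells held 87.4, 21.5 and 22.4 CPM. In the 2 clusters together, Ms4a7 was found in 68 of 380 cells, with a median of 5 UMIs in those cells. Of these 68 cells, 63 lay in the cluster of 263 cells, so the Ms4a7 value of the cluster of 117 cells rests on few cells. In macrophage-like cells Ms4a7 was found in 545 of 732 cells with a median of 3 UMIs, and in monocyte-like cells in 311 of 400 with a median of 7. Of the 68 unnamed cells with Ms4a7, 77.9% also held a UMI of the complement gene C1qa, against 40.7% of the 312 cells without it, at median depths of 16327.5 and 13524.5 UMIs. In dendritic-like cells 9 of the 23 cells with Ms4a7 (39.1%) held C1qa, against 36 of 504 (7.14%) without it, at median depths of 18194 and 14347.5 UMIs. The few dendritic-like cells with Ms4a7 were thus also richer in a macrophage gene.

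Shares of cells with a UMI were compared after each cell had been thinned to 2000 UMIs, which left out 31 macrophage-like, 18 monocyte-like and 8 dendritic-like cells. Ms4a7 was then found in 43.7% (39.9 to 47.4) of macrophage-like, 49.5% (44.4 to 54.6) of monocyte-like and 0.771% (0.210 to 1.96) of dendritic-like cells. Before thinning these shares were 74.5%, 77.8% and 4.36%. As a background, 0.149% (0.00378 to 0.830) of thinned fibroblast-like cells and 0 of 73 keratinocyte-like cells had a UMI, the latter allowing up to 4.11%. The interval of the thinned share in dendritic-like cells overlapped that of the fibroblast-like background. The median depths were 8841.5 UMIs in macrophage-like, 11874.5 in monocyte-like, 14526 in dendritic-like, 13491.5 in fibroblast-like and 20204 in keratinocyte-like cells.

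Ms4a6c was found in 80.6% (76.3 to 84.5) of thinned monocyte-like, 42.1% (38.4 to 45.8) of macrophage-like and 39.1% (34.9 to 43.5) of dendritic-like cells, with a fibroblast-like share of 0.747% (0.243 to 1.74). Ms4a4c was found in 64.4% (59.4 to 69.2), 4.14% (2.79 to 5.89) and 15.4% (12.4 to 18.8) of these groups, and Ms4a6b in 56.0% (50.9 to 61.1), 19.97% (17.1 to 23.1) and 3.47% (2.07 to 5.43). For both, the fibroblast-like share was 0.299% (0.0362 to 1.08). Endothelial-like cells, at a median depth of 8550 UMIs, gave shares of 3.97% (2.00 to 6.99) for Ms4a6c, 1.44% (0.395 to 3.66) for Ms4a4c, 0.361% (0.00914 to 1.99) for Ms4a6b and 1.81% (0.589 to 4.16) for Ms4a7. The Ms4a4c share of macrophage-like cells overlapped this second background but not the fibroblast-like one. The Ms4a7 share of dendritic-like cells overlapped both. Endothelial-like cells also held C1qa at 138 CPM, against 4.29 CPM in fibroblast-like cells, and the source of this RNA was not tested. No expression across a whole group is read from either share. Before thinning, the macrophage-like cluster led by Cfd held 171 UMIs of Ms4a4c in 43 of its 163 cells. At least 3 of the 5 abundant paralogs were found together in 66.0% (61.0 to 70.7) of monocyte-like cells, in 15.3% (12.7 to 18.1) of macrophage-like cells and in 2.31% (1.20 to 4.004) of dendritic-like cells.

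**Figure D5:**
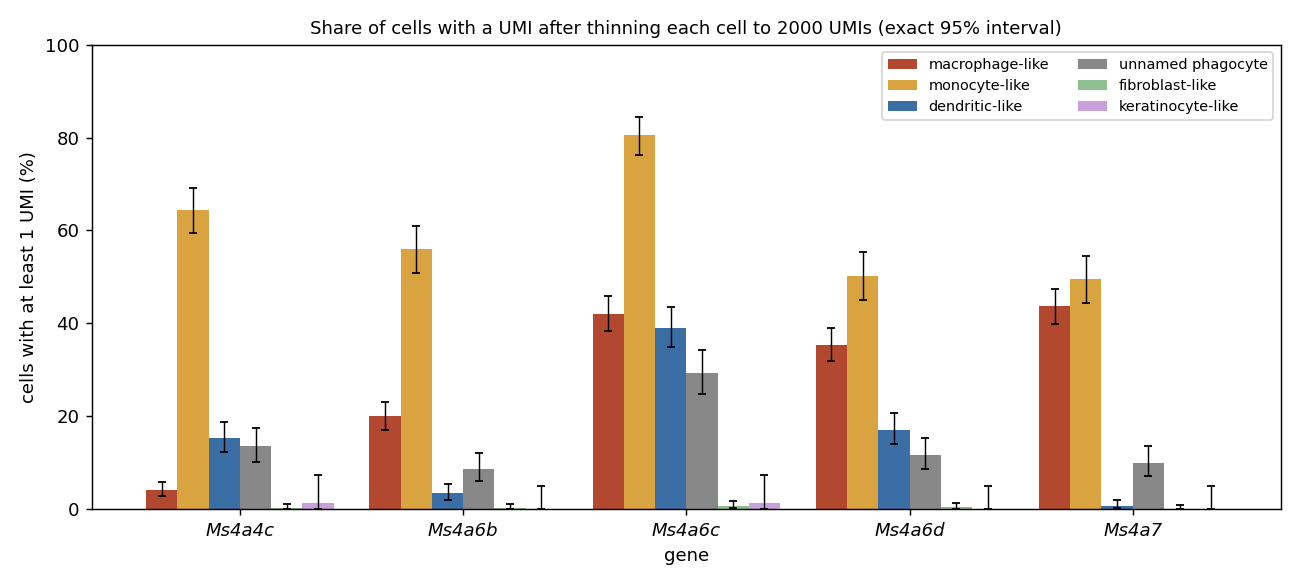
Percentage of cells with at least 1 UMI of each of 5 paralogs (horizontal) after thinning to 2000 UMIs, with exact 95% intervals, in the 4 phagocyte groups and in fibroblast-like and keratinocyte-like cells as background. Ms4a7 is found in 43.7% of macrophage-like and 49.5% of monocyte-like cells but in 0.771% of dendritic-like cells, where Ms4a6c is found in 39.1%.

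The pairs of neighbours with related promoters could be compared directly. Ms4a4b and Ms4a4c, whose promoters are shown above, had different leading groups. Ms4a4b stood at 660 CPM in T or NK-like and 18.2 CPM in monocyte-like cells, and Ms4a4c at 38.6 and 682 CPM. Among macrophage-like, monocyte-like and dendritic-like cells, both were highest in monocyte-like cells in the main setting. Of the 12 Ms4a4c UMIs in the 34 T or NK-like cells, all lay in 3 cells, whereas the 205 Ms4a4b UMIs lay in 20 cells. Ms4a6b and Ms4a6c were both highest in monocyte-like cells but parted in dendritic-like cells, where Ms4a6c held 297 CPM and Ms4a6b 17.6 CPM. Ms4a6b was also found in 15 of the 34 T or NK-like cells, at 93.4 CPM (62.5 to 134), in which Ms4a7 and C1qa had no UMI. Near-identical sequence can divert reads between such paralogs. Ms4a4b and Ms4a4c transcripts share an identical run of 127 bases and Ms4a6b and Ms4a6c one of 96 bases, longer than the 91 bases of a read, but in the last 500 bases, where 3′ tags mostly lie, no pair shared a run of that length. The longest there was 60 bases, in Ms4a6b and Ms4a6c.

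The genes most like each abundant member were sought over all 26 clusters, among 8114 genes with at least 500 UMIs and by Pearson's r of log2(CPM + 10). Clusters share libraries and free RNA, so r is a description. The clusters include cell types nearly without these members, so genes shared by all phagocytes can reach a high r. Between Ms4a6c and Ms4a6d, r was 0.945 over all clusters and 0.543 over the 11 phagocyte clusters. Between Ms4a6b and Ms4a7 it was 0.876 and 0.907. For Ms4a7 they were Msr1 (0.974), Fcgr1 (0.971) and C5ar1 (0.963), which encode a scavenger receptor, an Fc receptor and a complement receptor. For Ms4a6d they were Clec4a1 (0.971), Aif1 (0.966) and Pik3ap1 (0.954), and for Ms4a6c they were Cd180 (0.968), Slamf7 (0.967) and Clec4a1 (0.965). For Ms4a6b they were Ly9 (0.942), Slc37a2 (0.920) and Fyb (0.918), and for Ms4a4c Ifi209 (0.912), an interferon-inducible gene, Atxn7l1 (0.883) and Ly6c2 (0.881). Fcgr1 and Ly6c2 were among the markers that named the groups. The sparse members had lower values, led by Cd209e (0.836) for Ms4a4a, Hcst (0.794) for Ms4a4b and Gm26917 (0.638) for Ms4a1.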

How the data were processed

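The authors deposited UMI counts of both libraries as 1 matrix of whole numbers without normalization. Per the submitters' processing notes it was made with Cell Ranger 4.0.0 on mm10, and per the labels with 3′ chemistry. No column gives the age, so ages were pooled.

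The filter on barcodes asked for 500 genes and 1000 UMIs or more, with no more than 10% of UMIs mitochondrial, and kept 3797 of 5257. Scrublet called 6 doublets, which were removed. They were so few that doublets count as untreated. Counts scaled to 10000 per cell were logged, and 2000 variable genes without Ms4a genes, 30 principal components and 15 neighbours entered Leiden clustering (resolution 1, seed 1; scanpy 1.11.5, leidenalg 0.10.2), which gave 26 clusters. Clusters were named from 18 marker lists by the mean log2 excess of a list (pseudocount 10 CPM, a lead of 0.25 or more for a name). The excess over the median cluster set phagocyte clusters apart and named the other clusters. Phagocyte clusters were then named by the excess of the macrophage, monocyte, dendritic, mature dendritic and Langerhans lists over the pooled phagocytes. At least 3 markers had to be raised 2-fold over the median cluster, to 20 CPM or more. A name was dropped where the 10 leading genes held more markers of another list. The naming rule was chosen with the clusters in view, and names are rebuilt, hence the ending like.

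Named genes were the 8 members, the other Ms4a genes, related and partner genes, the markers and the 3 genes most like each member. Members and lists were chosen with earlier results of these data known. UMI sums per group gave CPM and log2 ratios with exact 95% intervals, which cover counting error only (scipy 1.17.1). In simulated counts with 4-fold changes, 95.6% to 95.8% of intervals held the true value, which checks their calculation only. Single libraries could lie outside them, as for Ms4a4c in macrophage-like over monocyte-like cells (-4.66 and -3.38, against -4.46 to -4.07). Members needed 50 UMIs in 2 groups together to be counted past 2-fold. Limits for a count of 0 use 3 counts. Of the matrix identifiers, 32158 of 32285 were found in GENCODE vM21. The alternatives were 10 planned and 4 chosen after seeing the data.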

Additional observations from a re-analysis of the deposited data

Results flagged for a closer look

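The 1460 barcodes that failed the cell filter entered no comparison and still held Ms4a UMIs above the limit of 3 counts (0.555 CPM) for every member. Ms4a6c was highest with 216 UMIs (39.97 CPM, 34.8 to 45.7), followed by Ms4a7 with 156 (28.9 CPM, 24.5 to 33.8) and Ms4a6d with 155 (28.7 CPM, 24.3 to 33.6). Of these barcodes, 1149 exceeded the mitochondrial limit. Ms4a1 had 37 UMIs there, against 47 in the analysed cells.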

How the results depend on the processing

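No paired analysis was possible because each age has 1 library and no source used here ties a library to its age. The counts of members past 2-fold moved by more than 1.5 times in 3 cases. In macrophage-like against dendritic-like cells the number lower went from 1 to 2 with the stricter cell filter, which kept fewer cells (305 and 133), and to 0 when cells were grouped one by one. In macrophage-like against monocyte-like cells the number lower went from 4 to 2 when cells were grouped one by one. The log2 ratio of Ms4a4b in monocyte-like over dendritic-like cells turned to -0.20 with the stricter filter. That of Ms4a4c in macrophage-like over dendritic-like cells turned to 0.44 with cells grouped one by one. Sign changes also occurred in ratios resting on under 50 UMIs in the main setting, which were not counted. Ms4a1 in monocyte-like over dendritic-like cells ranged from -3.97 to 4.24 across settings. Ms4a4b in macrophage-like over dendritic-like cells ranged from -4.67 to 0.62. The cause was not tested. Ms4a7 stayed between 4.10 and 5.80 for macrophage-like and between 3.39 and 6.45 for monocyte-like over dendritic-like cells in every setting, and Ms4a6b between 1.76 and 3.35 and between 4.04 and 5.12. The log2 ratio of Ms4a7 in macrophage-like over monocyte-like cells ranged from -0.79 to 0.72. Leaving out the cluster led by Igkc, cells with Cd79a, the cycling cells or the cluster led by Cfd, chosen after seeing the data, moved no count, but without the cluster led by Cfd the log2 ratio of Ms4a4c in macrophage-like over dendritic-like cells went to -3.12. Depth limits Ms4a1, Ms4a4a and Ms4a4b.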

Other observations

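Tmem176a and Tmem176b, relatives of the Ms4a family, followed another order. Tmem176a stood at 596 CPM in dendritic-like, 509 CPM in macrophage-like and 225 CPM in monocyte-like cells, and Tmem176b at 466, 646 and 301 CPM. Both were thus lowest in the cells in which Ms4a6c, Ms4a4c and Ms4a6b were highest. Of the genes known to act with family members, Fcer1g, the shared signalling chain of Fc receptors, stood at 2541 CPM in monocyte-like, 1879 CPM in macrophage-like and 1389 CPM in dendritic-like cells, and Tyrobp, a signalling adaptor, at 1402, 1047 and 1255 CPM. The lipid receptor gene Trem2, which also served as a marker, stood at 122, 44.3 and 3.37 CPM.

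Ms4a4d, which had 6 UMIs in all phagocytes together, stood at 253, 229, 111 and 212 CPM in the 4 fibroblast-like clusters of 357, 181, 147 and 27 cells. The third of these held 146 cells of suffix 1 and 1 of suffix 2. In the 32 mast-like cells, whose median depth was 3536 UMIs, 65 UMIs of Ms4a6c lay in 4 cells and 27 UMIs of Ms4a7 in 3 cells.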
